A study of Mus musculus with 12 samples.

Results

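Vitamin D handling in mouse kidney was described here through 7 genes chosen by name for their roles: Cyp27b1 and Cyp2r1 of activation, Lrp2 and Cubn of uptake, the plasma carrier gene Gc, and the receptor genes Vdr and Rxra. Of these 7 genes 6 had a probe set with a single gene symbol, out of 19938 genes so represented, and each of the 6 had 1 probe set. Gc was not analysed here. Whole-kidney RNA of female mice was hybridised to 12 whole-transcript arrays, 4 in each of 3 groups. The first group was wild-type (WT) mice of strain C57BL/6 that received 500 ng per g body weight of recombinant FGF23. The second was KL null mice of the mixed background 129/SvEv/C57BL/6 that received saline vehicle, and the third was C57BL/6 WT mice that received the same vehicle. All mice had been kept for 5 to 8 weeks on standard diet, were injected once into the peritoneum and were killed after 1 hour. The protocol calls the WT mice littermates although the strain labels differ between genotypes, so genotype and strain label cannot be told apart. Nothing in the labels ties an array to its own mouse, and p-values may reflect technical spread alone.

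The kidney is the main site where circulating calcidiol, the storage form of vitamin D, is turned into the hormone calcitriol by the mitochondrial 1-alpha-hydroxylase that Cyp27b1 encodes. Calcidiol travels on the carrier protein encoded by Gc, and proximal tubule cells retrieve the filtered complex through the endocytic receptors megalin (Lrp2) and cubilin (Cubn). Calcitriol acts through the vitamin D receptor (Vdr), which binds DNA as a heterodimer with a retinoid X receptor such as the product of Rxra. FGF23, a bone hormone that needs klotho (Kl) as its co-receptor, is known to lower calcitriol synthesis. The series title names renal vitamin D metabolism as its question.

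Values are log2 RMA signals, on which a difference of 1 is a doubling. They show differences of 1 probe set between groups, not amounts of one gene against another. A gene was called when its limma p, adjusted by Benjamini and Hochberg over all 19938 genes, was below 0.05. In KL null kidneys 4 of the 6 genes were called against WT vehicle, Cyp27b1 higher and Lrp2, Cubn and Vdr lower. Over all genes 8.01% passed there, 3.58% in the higher direction and 4.44% in the lower. In WT kidneys 1 hour after FGF23, 0 of the 6 were called against vehicle, where 0.0853% of all genes were. At an unadjusted limma p below 0.05 the count after FGF23 was also 0 of 6, beside 15.4% of all genes. The KL null arrays did not overlap with the vehicle arrays for the same 4 genes, beside 13.8% of all genes, and the FGF23 arrays overlapped with them for all 6 (7.01% of all genes had no overlap).

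**Figure D1:**
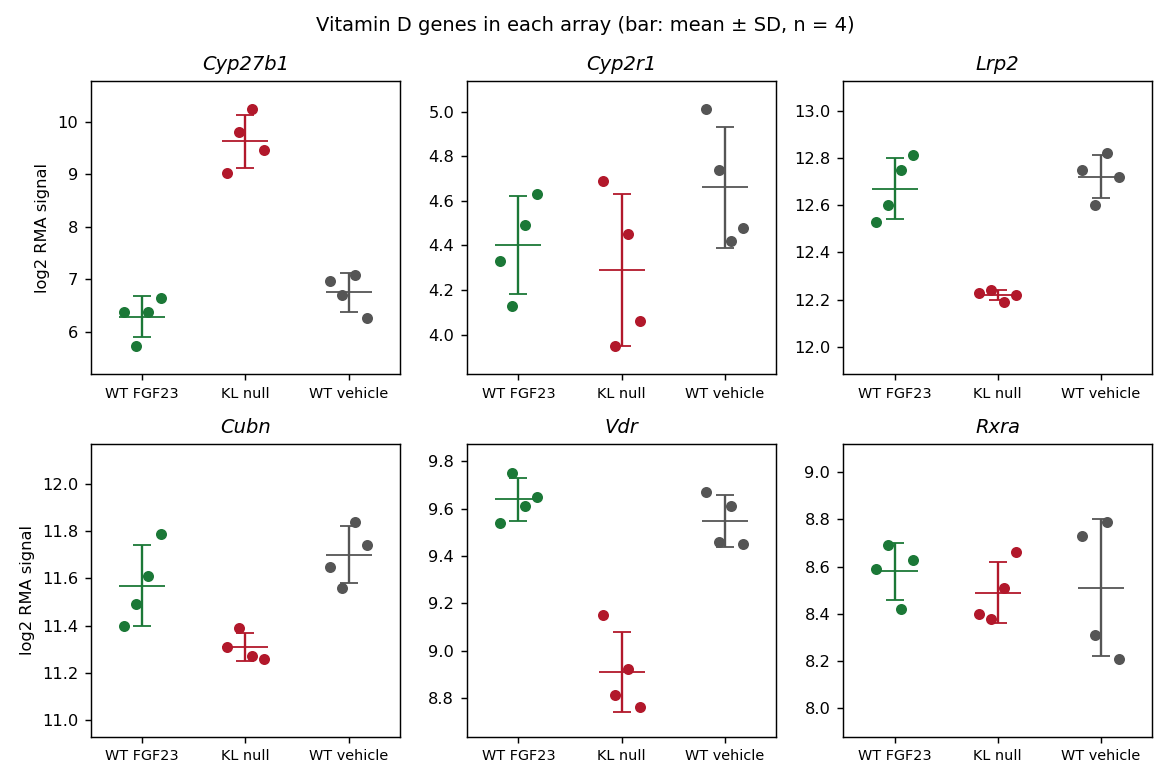
Log2 RMA signal (y axis, a scale of its own in each panel) of the 6 measured genes in the 4 arrays of each group (x axis); points are arrays and bars are mean ± SD. The KL null arrays lie between 9.03 and 10.24 for Cyp27b1, above all WT arrays, and below all WT arrays for Lrp2, Cubn and Vdr.

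The arrays carried kidney transcripts: Umod of the thick ascending limb lay between 12.49 and 12.91 and Kap, the kidney androgen-regulated protein of the proximal tubule, between 11.38 and 13.30 over the 12 arrays. Of 5 liver markers 2, Alb and Ttr, were lower in KL null than in WT vehicle and 0 were called after FGF23. Of 6 adrenal gland markers limma called 0 in either comparison with vehicle. After FGF23, 3 of them, Cyp11b1, Cyp21a1 and Chga, were on the higher side at an unadjusted p below 0.05 (adjusted p = 0.245, 0.282 and 0.276), and their part in the FGF23 comparison was not tested. Kl, the targeted gene, was at 10.45, 10.54, 10.61 and 10.44 in WT FGF23, at 9.66, 9.76, 9.66 and 9.80 in KL null and at 10.67, 10.45, 10.74 and 10.58 in WT vehicle (KL null against WT vehicle, log2 difference -0.89, adjusted p = 1.75e-05). Whether its probe set lies in the deleted part was not established, so this is no check of the labels. Array-wide spread (SD of log2 values) ran from 2.166 to 2.281, and WT FGF23 replicates 1 and 2 had the lowest, 2.166 and 2.167.

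The 4 genes called in KL null are shown by the 250 bases before their RefSeq start (GRCm38.p6), because 1 of them rose and the other 3 fell together. The windows are chr10:127047996-127048245 on the plus strand for Cyp27b1, and chr15:97908297-97908546, chr2:69586030-69586279 and chr2:13491877-13492126 on the minus strand for Vdr, Lrp2 and Cubn. Each is written 5′ to 3′, and capitals mark letter matches on either strand to a TATA box, a CCAAT box, a GC box or a nuclear receptor half-site. The letters searched for the TATA box were TATAAA, and matches to its common variant with the letters TATATA were counted with them. The letters of the CCAAT box are those of its name, those of the GC box were GGGCGG, and the half-site was searched as the single hexamer AGGTCA. No 2 of these motifs overlapped in the windows shown.
Cyp27b1: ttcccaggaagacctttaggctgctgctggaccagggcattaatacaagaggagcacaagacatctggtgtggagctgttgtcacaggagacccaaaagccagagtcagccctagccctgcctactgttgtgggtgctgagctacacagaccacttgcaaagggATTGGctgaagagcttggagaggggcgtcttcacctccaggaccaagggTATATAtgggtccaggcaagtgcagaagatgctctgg
Vdr: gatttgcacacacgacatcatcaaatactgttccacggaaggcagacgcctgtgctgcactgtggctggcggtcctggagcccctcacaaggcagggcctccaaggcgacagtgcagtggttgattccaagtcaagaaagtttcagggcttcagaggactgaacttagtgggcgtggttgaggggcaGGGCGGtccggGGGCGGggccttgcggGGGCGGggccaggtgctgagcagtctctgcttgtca
Lrp2: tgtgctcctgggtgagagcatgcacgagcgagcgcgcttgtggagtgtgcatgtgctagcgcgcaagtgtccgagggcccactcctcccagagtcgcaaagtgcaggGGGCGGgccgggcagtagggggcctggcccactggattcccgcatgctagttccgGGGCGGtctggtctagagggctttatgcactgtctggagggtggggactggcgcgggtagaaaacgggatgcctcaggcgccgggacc
Cubn: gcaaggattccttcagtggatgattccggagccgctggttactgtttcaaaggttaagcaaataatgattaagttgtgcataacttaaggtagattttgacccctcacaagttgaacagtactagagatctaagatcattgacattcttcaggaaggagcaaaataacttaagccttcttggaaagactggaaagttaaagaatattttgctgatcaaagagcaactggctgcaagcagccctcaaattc

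The Cyp27b1 window held 1 TATA box match, beginning 37 bases before the start, and 1 CCAAT box match on the opposite strand, beginning 86 bases before it. The windows of Vdr and Lrp2 held 3 and 2 GC box matches, and that of Cubn held none of these motifs. Of the genes not called, Rxra held 3 GC box matches in its first window and 0 in its second. The second Rxra window held 2 half-site matches, the nearer beginning 48 bases before the start. The Cyp2r1 window held 2 CCAAT box matches. Of 32851 RefSeq windows of the same length, 15.6% held the TATA box letters, 33.8% the CCAAT box, 32.7% the GC box and 14.0% the half-site. GC content was 54.4% for Cyp27b1, 61.2% for Vdr, 66.4% for Lrp2 and 39.6% for Cubn, with a median of 52.4% over all windows. These matches describe letters in a window and say nothing of binding.

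Cyp27b1 was the gene of the set with the largest difference. It was at 6.38, 5.73, 6.38 and 6.64 in WT FGF23, at 9.03, 9.81, 10.24 and 9.46 in KL null, and at 6.97, 6.70, 7.08 and 6.26 in WT vehicle (replicates 1 to 4). Each KL null array stood above every WT array, while the FGF23 and vehicle arrays overlapped. In KL null the mean was 9.63 ± 0.51, against 6.75 ± 0.37 in WT vehicle (SD, n = 4 each). This is 7.37-fold higher (95% interval 5.15 to 10.6, log2 difference 2.88, SE 0.243, adjusted p = 7.82e-06), the 13th smallest p of all genes. In a bulk sample, more cells of a type and more RNA per cell cannot be told apart. The exact permutation test over the arrays gave p = 0.0286, the smallest that 4 against 4 arrays allow.

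After FGF23 the Cyp27b1 mean was 6.28 ± 0.39, against 6.75 ± 0.37 with vehicle (SD, n = 4 each). The log2 difference of -0.47 (SE 0.243) had a 95% interval of -0.99 to 0.05 and did not pass (adjusted p = 0.362, exact permutation p = 0.171). The interval reaches from a 1.98-fold lower level to slightly above no change, so neither a fall within it nor its absence was shown at 1 hour. Replicate 2 alone among the FGF23 arrays lay below all vehicle arrays. Without the FGF23 arrays of lowest spread, replicates 1 and 2, the log2 difference was -0.24, and with array spread as a covariate it was -0.14. It was -0.29 without WT FGF23 replicate 2 alone.

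Cyp2r1 encodes the microsomal enzyme, best known from liver, that makes calcidiol from vitamin D. Its signal was low on these arrays, at 4.33, 4.13, 4.49 and 4.63 in WT FGF23, 4.69, 3.95, 4.45 and 4.06 in KL null, and 5.01, 4.74, 4.42 and 4.48 in WT vehicle. All 3 groups overlapped. The log2 difference from vehicle was -0.27 after FGF23 (95% interval -0.62 to 0.09, adjusted p = 0.435) and -0.38 in KL null (-0.73 to -0.02, adjusted p = 0.207). Neither passed over all genes. Whether this probe set stood above background cannot be read from the deposited values.

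Megalin and cubilin, the receptors that bring filtered calcidiol and its carrier into the proximal tubule cell, were both lower in KL null. Lrp2 was at 12.53, 12.60, 12.75 and 12.81 in WT FGF23, at 12.23, 12.24, 12.19 and 12.22 in KL null, and at 12.75, 12.60, 12.82 and 12.72 in WT vehicle. The KL null arrays spanned only 0.05 and lay below all 8 WT arrays. The KL null mean was 12.22 ± 0.02, against 12.72 ± 0.09 in WT vehicle (SD, n = 4 each), 1.42-fold lower (95% interval 1.25 to 1.6, log2 difference -0.50, adjusted p = 0.00175). FGF23 left a log2 difference of -0.05 (95% interval -0.23 to 0.13, adjusted p = 0.776).

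Cubn was at 11.40, 11.49, 11.61 and 11.79 in WT FGF23, at 11.31, 11.39, 11.27 and 11.26 in KL null, and at 11.65, 11.56, 11.84 and 11.74 in WT vehicle. The highest KL null array, replicate 2, stayed just below the lowest FGF23 array, replicate 1. In KL null the mean was 11.31 ± 0.06, against 11.70 ± 0.12 in WT vehicle (SD, n = 4 each), 1.31-fold lower (log2 difference -0.39, adjusted p = 0.019). This call was lost without WT vehicle replicate 3 (adjusted p = 0.0728) and without KL null replicate 3 (0.0608). After FGF23 the difference from vehicle was -0.12 on the log2 scale (95% interval -0.33 to 0.08, adjusted p = 0.51).

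Vdr, the receptor that carries the calcitriol signal, fell in KL null, opposite in direction to Cyp27b1. It was at 9.54, 9.75, 9.61 and 9.65 in WT FGF23, at 9.15, 8.81, 8.92 and 8.76 in KL null, and at 9.67, 9.46, 9.61 and 9.45 in WT vehicle. No KL null array reached the lowest WT array, and the 2 WT groups overlapped. The KL null mean of 8.91 ± 0.17, against 9.55 ± 0.11 in WT vehicle (SD, n = 4 each), was 1.56-fold lower (95% interval 1.35 to 1.79, log2 difference -0.64, SE 0.0957, adjusted p = 0.000921). After FGF23 the log2 difference was 0.09 (95% interval -0.11 to 0.29, adjusted p = 0.648).

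Rxra, the heterodimer partner, was at 8.59, 8.69, 8.42 and 8.63 in WT FGF23, at 8.40, 8.38, 8.51 and 8.66 in KL null, and at 8.73, 8.31, 8.79 and 8.21 in WT vehicle. The vehicle arrays were the most spread and the 3 groups overlapped throughout. The KL null difference from vehicle was -0.02 on the log2 scale (95% interval -0.29 to 0.24, adjusted p = 0.952), whose sign turned in 6 of 25 alternatives. After FGF23 it was 0.07 (95% interval -0.19 to 0.34, adjusted p = 0.789). The KL null interval for Rxra lies above the log2 difference of -0.64 measured for Vdr, although the difference between the 2 genes was not tested.

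WT FGF23 and KL null arrays were also compared directly, where treatment, genotype and strain label all differ. This contrast is the difference between the 2 comparisons with vehicle, and it shares its arrays with both. Cyp27b1 was 10.2-fold lower in WT FGF23 than in KL null (log2 difference -3.35, 95% interval -3.87 to -2.83, adjusted p = 1.97e-06). Vdr was 1.66-fold higher (log2 difference 0.73, adjusted p = 0.000339) and Lrp2 1.37-fold higher (0.45, adjusted p = 0.00314). These 3 calls of 6, 2 higher and 1 lower, stand beside 12% of all genes called, 5.25% higher and 6.72% lower. Cubn had a log2 difference of 0.27 that did not pass (adjusted p = 0.0811) although its groups did not overlap, as held for 4 of the 6 genes and 16.1% of all genes. It passed with array spread as a covariate (adjusted p = 0.0448), with trended and robust moderation (0.0336), with array quality weights (0.0205) and without the FGF23 arrays of lowest spread (0.0456). Cyp2r1 had a log2 difference of 0.11 (adjusted p = 0.709) and Rxra of 0.10 (adjusted p = 0.655).

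**Figure D2:**
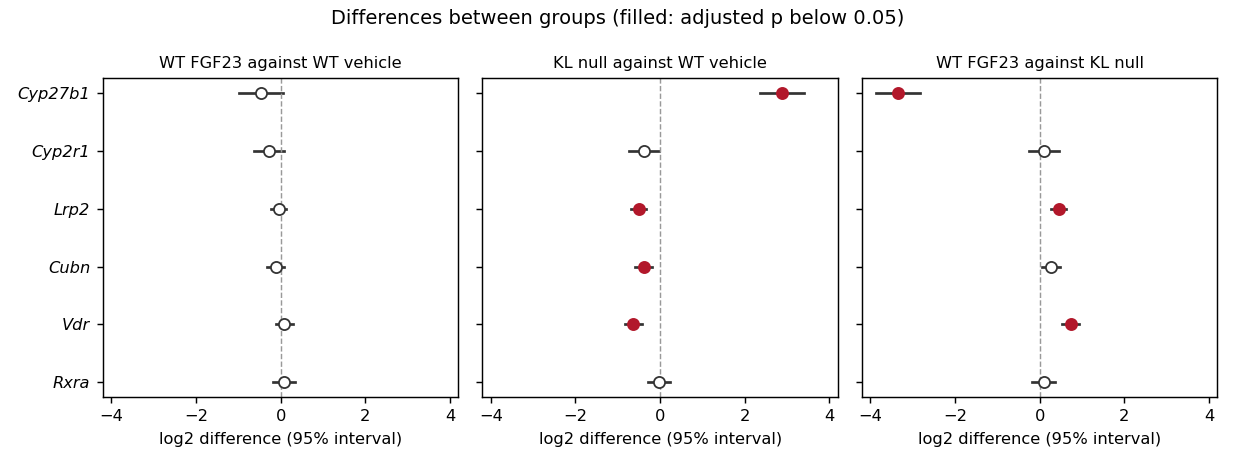
Log2 differences with 95% intervals (x axis) for the 6 genes (y axis) in the 3 comparisons, from 1 limma fit over 12 arrays; filled points have an adjusted p below 0.05. In KL null against WT vehicle Cyp27b1 lies at 2.88 and Lrp2, Cubn and Vdr lie at -0.50, -0.39 and -0.64, while after FGF23 each interval against vehicle includes 0.

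Other genes of the pathway were followed through 6 lists, of whose 72 genes 59 were measured with a single symbol. Against WT vehicle, 6 of the 59 were higher and 8 lower in KL null, with a median log2 difference of -0.04 beside 0.02 over all genes. Of all genes 8.01% were called in this comparison, 3.58% higher and 4.44% lower. Each list count in KL null below, of pathway genes or of markers, stands beside these shares. After FGF23, limma called 0 of the 59, and 6 had an unadjusted p below 0.05, 1 of them higher, where 15.4% of all genes had one. The lists were chosen with earlier results of these arrays known, so their counts describe and do not test.

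Among 12 genes of megalin and cubilin endocytosis, 4 were lower in KL null, 0 were higher and 8 did not pass (median log2 difference -0.19). Lrpap1, the chaperone that escorts megalin through the secretory pathway, was at 10.79 ± 0.14 in KL null and 11.24 ± 0.09 in WT vehicle (log2 difference -0.45, adjusted p = 0.0052). Dab2, an adaptor that binds the megalin tail, had a log2 difference of -0.32 (adjusted p = 0.0226), and Alb, which encodes the albumin that both receptors retrieve, of -1.22 (adjusted p = 0.0194). Alb is also a liver marker, and of the 5 liver markers measured it and Ttr (-0.84, adjusted p = 0.0306) were lower while Ahsg was not called (0.10, adjusted p = 0.546); the part of liver RNA was not tested. Ehd1 of endocytic recycling, named after its value was seen, was the other (-0.50, adjusted p = 0.0247). The Dab2 call was lost in 6 of 24 alternatives, among them a further quantile normalization, and the Alb call in 5. After FGF23 the smallest p of the list belonged to Rab11a, a recycling GTPase (log2 difference -0.21, adjusted p = 0.258).

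Of 14 known targets of the vitamin D receptor, 3 were higher in KL null, 2 were lower and 9 did not pass (median log2 difference 0.14). The epithelial calcium channel gene Trpv5 was at 7.67, 7.48, 7.84 and 7.65 in WT FGF23, at 8.83, 8.78, 8.84 and 8.88 in KL null and at 7.93, 7.81, 7.76 and 7.94 in WT vehicle, 1.96-fold higher in KL null than in WT vehicle (adjusted p = 1.05e-05). S100g, a calcium-binding calbindin, had a log2 difference of 0.74 (adjusted p = 0.000689), and Trpv6, the second channel gene, of 0.53 (adjusted p = 0.00537). Other calcium-handling genes of the list did not pass in KL null, among them Calb1 (log2 difference 0.11, adjusted p = 0.703), the exchanger gene Slc8a1 (0.23, adjusted p = 0.513), the calcium pump gene Atp2b1 (-0.02, adjusted p = 0.911) and Casr, the calcium-sensing receptor (-0.09, adjusted p = 0.759). The 2 that fell were Kl, the targeted gene itself, and the phosphate cotransporter gene Slc34a1 (log2 difference -0.27, adjusted p = 0.0305). Trpv6, Slc34a1, Slc8a1, Atp2b1 and Casr were named after their values were seen. After FGF23 the smallest p of the list belonged to Calb1, another calbindin (log2 difference -0.44, adjusted p = 0.241).

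Of 10 genes of hormone inputs to Cyp27b1, 1 was called in KL null, a share near the 8.01% of all genes. Pth1r, the receptor for the parathyroid hormone that induces Cyp27b1, was at 10.53, 10.65, 10.57 and 10.55 in WT FGF23, at 10.38, 10.16, 10.09 and 10.12 in KL null and at 10.90, 10.56, 10.98 and 10.68 in WT vehicle. All KL null arrays lay below all vehicle arrays (log2 difference -0.59, 1.51-fold lower, adjusted p = 0.00219). After FGF23 it had a log2 difference of -0.21 (adjusted p = 0.337), the smallest p of its list.

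Of 14 nuclear receptor partners and coregulators 1 was higher, 1 lower and 12 did not pass in KL null. Nr1h3, the liver X receptor alpha that also pairs with retinoid X receptors, had a log2 difference of -0.61 (adjusted p = 0.00401). Nr1i3, the constitutive androstane receptor, had one of 0.52 (adjusted p = 0.01). After FGF23 the smallest p was that of Nr1i2, the pregnane X receptor (-0.16, adjusted p = 0.318).

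Of 6 further genes of vitamin D metabolism 2 were higher in KL null, the P450 genes Cyp2j6 (log2 difference 0.56, adjusted p = 0.0104) and Cyp3a13 (0.39, adjusted p = 0.0119). Cyp3a13 lost its call without WT vehicle replicate 1 (adjusted p = 0.0511). After FGF23 the smallest p was that of Cyp2j6 (-0.26, adjusted p = 0.319). None of the 3 measured redox partners of P450 enzymes passed by limma, also at an unadjusted p below 0.05 (0 of 3 in each comparison with vehicle). The smallest p belonged to Cyb5r3 in KL null (log2 difference 0.23, adjusted p = 0.395) and to Cyb5a after FGF23 (-0.10, adjusted p = 0.583).

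**Figure D3:**
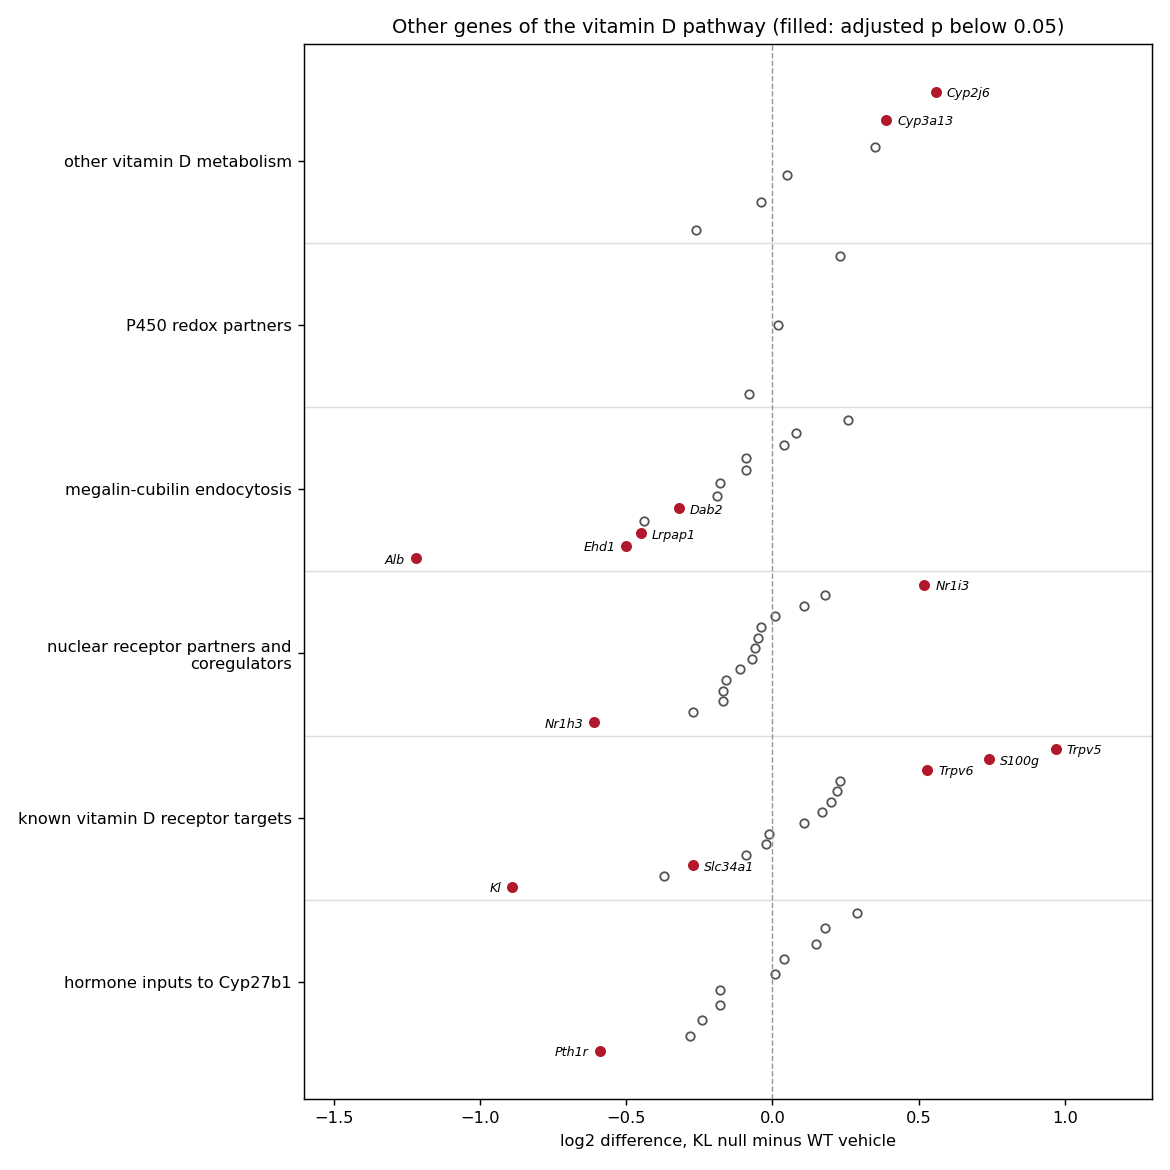
Log2 difference between KL null and WT vehicle (x axis) of the 59 other pathway genes, grouped by list (y axis) and sorted within it; each point is a gene, filled and named where its adjusted p is below 0.05. Trpv5, S100g and Trpv6 stand at 0.97, 0.74 and 0.53, and Alb, Kl, Nr1h3 and Pth1r at -1.22, -0.89, -0.61 and -0.59.

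The genes whose profile over the 12 arrays lay closest to that of Cyp27b1 were Mmp12, Upp2, Lyz2, Lcn2 and Gpnmb, in this order. Likeness was the root mean square difference between profiles centred on their own mean, which was 0.535, 0.598, 0.62, 0.643 and 0.643 log2 units. Mmp12, the macrophage elastase, was at 6.33, 6.22, 6.27 and 6.21 in WT FGF23, at 7.88, 10.42, 9.74 and 9.43 in KL null and at 6.18, 6.44, 5.96 and 6.31 in WT vehicle. Upp2, a uridine phosphorylase, was at 6.64, 6.39, 5.66 and 5.91 in WT FGF23, at 7.91, 9.19, 9.61 and 9.35 in KL null and at 5.69, 6.2, 5.85 and 6.51 in WT vehicle. In both genes, as in Cyp27b1, KL null replicate 1 was the lowest of its group and still above all vehicle arrays. The choice by likeness over these same arrays favours such a match, so it is not a separate result. Lyz2 is the lysozyme of myeloid cells, Gpnmb a glycoprotein of activated macrophages and Lcn2 a lipocalin released by injured tubules.

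Macrophages are known to express Cyp27b1 too, and 9 markers of these cells were followed. In KL null 5 of 9 macrophage markers were higher, 1 was lower and 3 did not pass against WT vehicle (median log2 difference 0.88). Of these 5, Mmp12, Lyz2 and Gpnmb are also among the genes picked above by likeness to Cyp27b1, so the 2 results share values. Mmp12 (3.15) and Gpnmb (2.83) had the largest log2 differences of the list and weigh most in its mean. The mean of the 9 ranged from 6.68 to 8.03 in KL null and from 6.29 to 6.53 in WT vehicle. The defining markers did not move alike: Adgre1 had a log2 difference of 0.25 (adjusted p = 0.444), Csf1r of -0.55 (adjusted p = 0.0321), Cd68 of 1.06 (adjusted p = 0.0304) and Itgam of 0.88 (adjusted p = 0.00159). Across KL null replicates 1 to 4 the list mean was 6.68, 8.03, 7.71 and 7.78. Replicate 1 was lowest in the list and in Cyp27b1, but the list was highest in replicate 2 and Cyp27b1 in replicate 3. The part of macrophages in the Cyp27b1 difference was not tested.

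Lrp2, Cubn and Vdr fell in KL null beside markers of the proximal tubule, and markers of other kidney compartments leaned lower too. Of 12 proximal tubule markers 7 were lower in KL null and 0 higher (median log2 difference -0.37), from Kap (-1.5, adjusted p = 1.05e-05) and Slc17a3 (-1.49, adjusted p = 5.4e-05) to Aqp1 (0.05, adjusted p = 0.777) and Slc5a2 (-0.14, adjusted p = 0.525), which did not pass. Their list mean ranged from 11.23 to 11.52 in KL null and from 11.78 to 11.98 in WT vehicle. In the same comparison podocyte markers were on the lower side for 4 of 4 genes (median log2 difference -0.25, 1 called). Endothelial markers were so for 4 of 4 (-0.26, 0 called). Of 8 distal tubule and collecting duct markers 6 were on the lower side, 1 of them called, and 2 on the higher (-0.14). Tubule injury markers were higher for 3 of 6 genes. Their list means were 7.15 to 8.02 in KL null and 6.43 to 7.60 in WT vehicle. Replicate 1 was the highest vehicle array, with the injury marker Havcr1 at 10.00 beside 4.59 to 5.17 in the other vehicle arrays. Havcr1 itself was not called in KL null (log2 difference 0.57, adjusted p = 0.843). The part of proximal tubule content or injury in the differences of Lrp2, Cubn and Vdr was not tested. KL null replicate 1 had the highest proximal tubule mean of its group, the lowest macrophage and injury means, the lowest Cyp27b1 and the highest Vdr. Lrp2 and Cubn did not share this order. Both were highest in KL null replicate 2, at 12.24 and 11.39, against 12.23 and 11.31 in replicate 1. Without replicate 1 the log2 difference from WT vehicle was 3.08 for Cyp27b1 and -0.72 for Vdr. KL null replicate 1 also had the lowest array quality weight of the 12 arrays (0.483). Its array-wide spread was the lowest of the KL null arrays (2.195). The part of array quality in these orders was not tested.

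**Figure D4:**
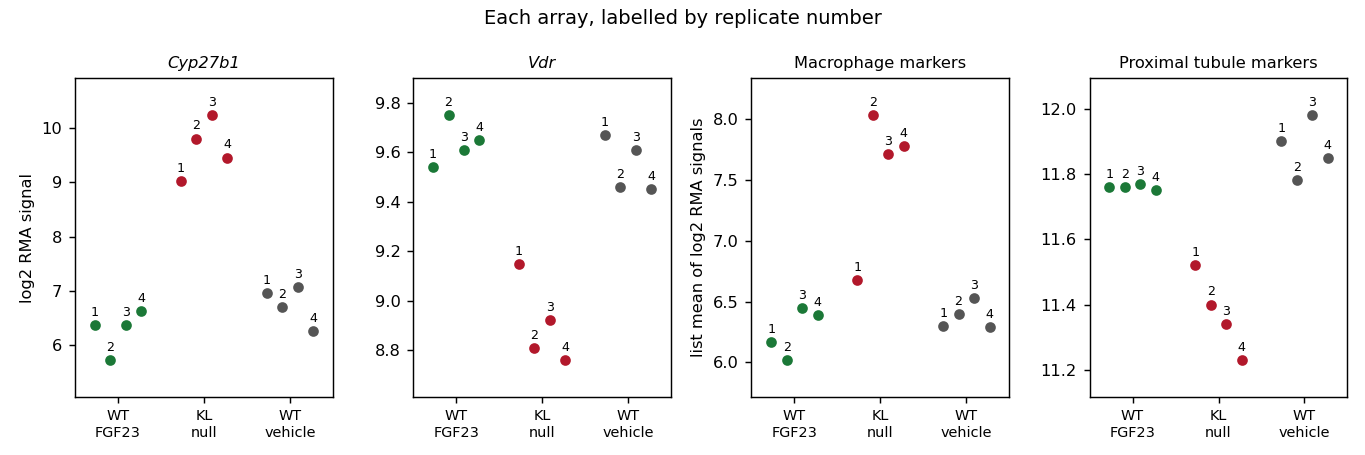
Log2 RMA signal of Cyp27b1 and Vdr, and list means of 9 macrophage and 12 proximal tubule markers (y axes, own scale each), for every array (numbered by replicate) in the 3 groups (x axis). KL null replicate 1 is the KL null array nearest the WT arrays in all 4 panels, with a macrophage list mean of 6.68 beside 7.71 to 8.03 in the other KL null arrays.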

How the data were processed

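Kidney RNA of 12 samples was measured on whole-transcript arrays with biotin label, per the labels' protocols. The authors deposited log2 values per probe set. The submitters' processing notes name RMA and Partek 6.2, and no further settings were found. RMA compresses differences of dim probe sets, and the arrays differed in the spread of their values. Of 28853 probe sets 21789 had 1 gene symbol in the platform annotation, 1621 had several and 5443 none. Each of 19938 genes was represented by its probe set of highest mean. Group means were fitted over all 12 arrays with limma 3.58.1 under R 4.3.3, using lmFit followed by eBayes, with 9 residual degrees of freedom and two-sided tests. Adjustment was by Benjamini and Hochberg over all genes, with a threshold of 0.05, and the procedure was tested on simulated data. Exact permutation tests (scipy 1.17.1) were two-sided. The number of arrays limits the precision.

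Same-numbered arrays were compared through the correlation of their deviations from the group means. It was 0.223, 0.143, 0.259 and 0.188 for the 4 pairs of WT FGF23 and KL null, all over 0.1. Some pairs of unlike numbers in these groups passed 0.1 too. They were WT FGF23 1 with KL null 2 (0.112), 2 with 1 (0.185), 3 with 4 (0.238) and 4 with 3 (0.152). All pairs of replicates 1 or 2 with 3 or 4 lay between -0.219 and -0.056. A pairing by number was therefore not shown, by the data or by the labels, and the replicate block was run as an alternative only. In both groups replicates 1 and 2 had lower array-wide spread (2.166 to 2.217) than replicates 3 and 4 (2.233 to 2.281). A block of replicates 1 and 2 against 3 and 4 was not fitted, and the cause of this split was not tested. In each comparison with vehicle some same-numbered pairs were below 0, and the numbers were not taken to pair.

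The genes and lists were chosen with earlier results of these data known. Named by rule were all measured members, Kl and the 5 genes nearest Cyp27b1 in profile. So were up to 3 called genes of each pathway list by smallest p, otherwise the gene of smallest p. Markers, and genes named after their values were seen, came beside these. Promoter windows come from RefSeq and matched all 6 measured members by gene identifier. The alternatives were another normalization, centring, array spread, filters, moderation, weights, samples left out and a replicate block.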

Additional observations from a re-analysis of the deposited data

Results flagged for a closer look

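The screen covered 27 genes: the measured members, Kl, the pathway genes named by rule and the 5 genes nearest Cyp27b1 in profile. Of their 81 groups of 4 arrays, 4 had 1 array set apart from the other 3 by more than Dixon's 95% limit. Chance flags about 1 in 20 groups. Other genes named in the text, such as Trpv6, Ehd1 and Havcr1, were not screened. Lrpap1 was at 11.00 in KL null replicate 1, against 10.71 to 10.74 in the other KL null arrays. Dab2 was at 11.54 in KL null replicate 2, against 11.32 to 11.34 in the others. S100g was at 11.89 in KL null replicate 2, against 12.12 to 12.15 in the others. Alb was at 8.60 in WT vehicle replicate 3, against 8.16 to 8.23 in the others. The array groups of the 6 vitamin D genes held no such array.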

How the results depend on the processing

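Under 24 alternatives the 6 vitamin D genes held 3 to 4 calls in KL null against WT vehicle (4 in the reported fit), 0 after FGF23 and 3 to 4 in WT FGF23 against KL null (3 reported). Cyp27b1 kept its call in KL null under all 24 alternative fits, with log2 differences of 2.68 to 3.08 (adjusted p from 1.3e-06 to 0.00301). So did Vdr (-0.72 to -0.59) and Lrp2 (-0.56 to -0.38). The exact permutation test, run beside these fits, gave p = 0.0286 for each of the 3 genes, not adjusted over genes. After FGF23 the Cyp27b1 difference ran from -0.63 to -0.14. Signs turned only where differences lay near 0. After FGF23, Lrp2 was at 0.00 with a further quantile normalization, 0.04 with array spread as a covariate and 0.06 without the FGF23 arrays of lowest spread. In the last, Cubn was at 0.00, and with the covariate Cyb5a at 0.02. Rxra ran from -0.03 without WT vehicle replicate 4 to 0.17 without replicate 3. In KL null, Rxra was at 0.01 with quantile normalization, with the covariate and without KL null replicates 1 or 2, at 0.05 without WT vehicle replicate 1 and 0.07 without replicate 3, with -0.12 without replicate 4 as its lowest. Cyp2r1 was at -0.00 in WT FGF23 against KL null without KL null replicate 2 and 0.24 without replicate 1. Pathway calls in WT FGF23 against KL null, 20 in the reported fit, were 11 without the FGF23 arrays of lowest spread and 11 to 20 with 1 array left out. They were 11 without WT FGF23 replicate 2, 13 without WT FGF23 replicate 4 or KL null replicate 2, and 12 without KL null replicate 3. The cause was not tested. Over all genes the calls in KL null against WT vehicle, 1598 in the reported fit, ran from 828 to 2852, those after FGF23, 17, from 2 to 19, and those of WT FGF23 against KL null, 2386, from 944 to 3333. With arrays centred on the median the KL null calls split into 428 higher and 1239 lower, against 713 and 885 as reported.

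The labels number replicates 1 to 4 in each group without saying that a number marks a shared litter or day. Same-numbered arrays had deviations correlated from -0.216 to 0.259 over genes (median 0.128, against -0.034 for other pairs), and in 8 of 24 cases an array correlated best with its own number. With the replicate block, KL null against WT vehicle held 4 calls among the vitamin D genes, Cyp27b1 at 2.88 (adjusted p = 1.84e-05), and 13 among pathway genes. FGF23 against vehicle held 0 and 0, with 6 calls over all genes. WT FGF23 against KL null held 3 and 18, with no call among the 6 vitamin D genes changed by the block.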
